A study of Dreissena polymorpha with 12 samples.

Results

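The 100 sequences described here are bright array features of the zebra mussel, Dreissena polymorpha, whose averages at 6 collection sites lay close together. A sequence is an expressed-sequence accession, read by 1 or more array probes. It entered if it had at least 1 probe well above background on all 12 arrays, which held for 1226 of the 3541 sequences on the array. Leaving out accessions that begin with AM229 or AM230 left 1160. Their level was the mean log2 signal of those probes after quantile normalisation, a step that gives every array the same set of values and keeps only each probe's rank. Among the 1160, 365 had 6 site means spanning less than 0.5 log2 units from lowest to highest, and the 100 brightest of these 365 were taken. The sequences were thus chosen by their level and span on these arrays, and both are given below as a description with no test.

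Genes that keep a steady messenger RNA level in many tissues and conditions are often called housekeeping genes, and typical classes are ribosomal proteins, translation factors, cytoskeletal proteins and enzymes of energy metabolism. They matter in field studies of mussels because measured transcript levels are often divided by those of such reference genes. In gills, the filtering and gas exchange organ of bivalves, ciliary cytoskeleton and mitochondrial transcripts are usually plentiful. Which of these classes the 100 sequences belong to is not known here. No file pairs the accessions with a gene name, and 0 of the 100, and 0 of all 3541, matched the accessions of the RefSeq gene table used. They are therefore named by accession only, and no function is given to any of them.

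Mussels were collected in spring at the Sitjar dam and, 200 km from it, at 5 sites on the Ebro River named Flix Factory, Flix Reservoir, Riba Roja, Faio and Mequinenza. Each site gave 2 pools of 5 individuals, and each pool was hybridised to 1 one-colour Agilent array. No strain, age, treatment or untreated reference group enters the design, so site is the only label that separates the groups. The tissue is labelled as gills, but the protocol for collection names a portion of the whole body. With no gene names, marker genes could not be used to check the tissue. In pooled tissue, fewer cells of a type and less RNA per cell cannot be told apart. Nothing states how individuals were divided between pools, so the spread within a site is that of these pools and arrays together. Slide 1 carried every replicate 1 and slide 2 every replicate 2, and each slide was scanned once. A site had the same place on both slides, so its effect and that of array position cannot be told apart.

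The arrays differed in overall signal. The share of probes well above background ran from 22.5% on Mequinenza replicate 2 to 34.7% on Sitjar replicate 1, with a median of 32.1%. The median unscaled signal of the 1226 sequences ran from 1383 to 7424 intensity units between the same arrays. No spot was saturated, and the brightest of the 100 sequences reached between 45.0% and 73.4% of the saturation value on an array. The 316 spots of the probes used for the 100 sequences were 2.08% of all non-control spots. They held between 36.8% of the summed signal (Sitjar replicate 1) and 47.7% (Mequinenza replicate 2), with a median of 41.4%. Brightness on an array also depends on the probe, so this share does not rank the transcripts, and the word abundant is used here for bright features only.

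The 100 sequences had mean levels from 15.75 to 18.67 on the quantile-normalised log2 scale, with a median of 17.31. Their spans over the 6 site means ran from 0.15 to 0.50, with a median of 0.35, where the median of all 1226 sequences was 0.67. The span was under 0.25 for 26 of the 100. Median levels of the 100 by site were 17.31 at Sitjar, 17.33 at Flix Factory, 17.31 at Flix Reservoir, 17.28 at Riba Roja, 17.37 at Faio and 17.42 at Mequinenza. These 6 medians lie closer together than the 6 site means of any single member. A further 64 of the 1160 sequences were as bright as the dimmest of the 100 but spanned 0.5 or more, and 265 dimmer ones spanned under 0.5.

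**Figure D1:**
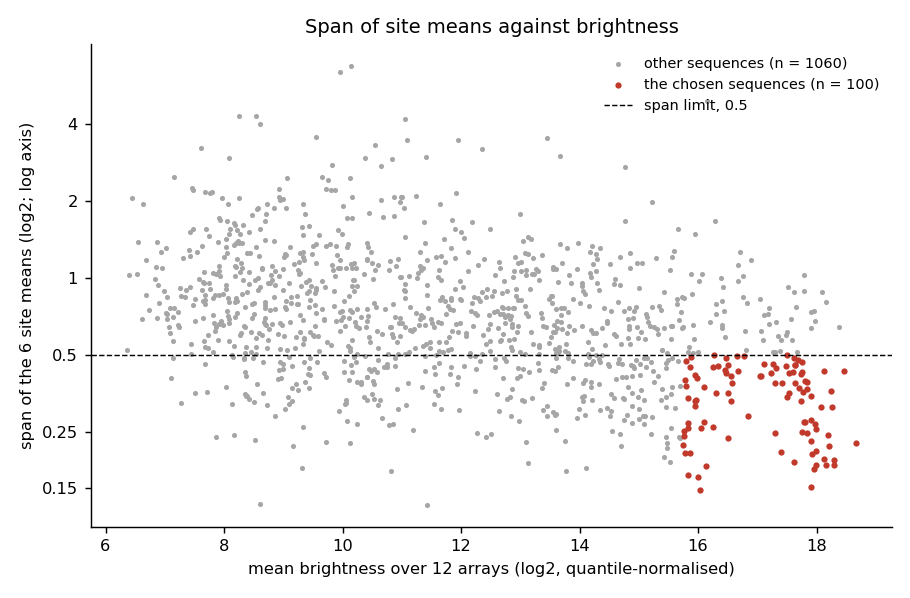
Span of the 6 site means (vertical, log2 units on a log axis) against mean level over 12 arrays (horizontal, quantile-normalised log2) for 1160 sequences, 1 point each. The 100 chosen sequences (red) lie below the dashed limit of 0.5 and at levels of 15.75 or more by the rule. All other sequences are grey.

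The brightest member was EY434169, read by 1 probe well above background on every array. Its levels, replicates 1 and 2 in turn, were 18.73 and 18.83 at Sitjar, 18.83 and 18.73 at Flix Factory, 18.48 and 18.63 at Flix Reservoir, 18.48 and 18.70 at Riba Roja, 18.67 and 18.73 at Faio, and 18.73 and 18.44 at Mequinenza. The lowest array belonged to Mequinenza and the highest to Flix Factory and Sitjar, and the Mequinenza pools alone covered most of the range of the other sites. The site means spanned 0.23. The 4 equal values of 18.73 in this list follow from the method. The probe was the second brightest on 4 arrays, and quantile normalisation gives that rank 1 fixed value, while its unscaled signal on those arrays ran from 330939 to 541890. Over all 12 arrays the probe's rank ran from 1 to 18.

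The next brightest members were EY435488 (mean 18.47, span 0.43), EY435156 (18.30, span 0.19), EY436663 (18.29, span 0.19) and EY434894 (18.27, span 0.31). EY435488 had its lowest array at Faio replicate 1 (18.01) and its highest at Flix Factory replicate 2 (18.70). EY436993, with a mean of 18.00, had the smallest spread within sites of all 100 (SD 0.04), and its 12 arrays lay between 17.86 at Sitjar replicate 2 and 18.08 at Flix Reservoir replicate 1. Both of its Sitjar arrays (17.90 and 17.86) were below all 10 Ebro arrays, of which the lowest read 17.95. Single arrays decided some of these spans. That of EY434894 was 0.55 without Mequinenza replicate 1 and 0.13 without replicate 2, and that of EY435488 was 0.25 without Faio replicate 1 and 0.62 without replicate 2. That of EY436993 stayed between 0.17 and 0.21 whichever array was left out. The 20 brightest members ended with EY435423, with a mean of 17.91 and a span of 0.35, which was 0.55 without Mequinenza replicate 1 and 0.22 without replicate 2. Leaving out 1 array in turn brought 4 of the 20 to 0.5 or more at least once, and 24 of all 46 members chosen for naming. Of these 20, 10 had their lowest site mean at Sitjar.

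The smallest span, 0.15, was that of EY436390, with site means of 16.03 at Sitjar, 16.03 at Flix Factory, 16.08 at Flix Reservoir, 16.10 at Riba Roja, 15.96 at Faio and 16.04 at Mequinenza. Its Mequinenza arrays nevertheless read 16.39 and 15.70, farther apart than any of the site means. A small span of means of 2 arrays can thus hold replicates that differ by more. EY435515 also spanned 0.15, from 17.83 at Sitjar to 17.98 at Faio, and its arrays ran from 17.70 to 18.07. EY433913 and EY436582 both spanned 0.17, at means of 16.01 and 15.83. The small span of EY433913 rested on both Mequinenza arrays, since it was 0.58 without replicate 1 and 0.41 without replicate 2. That of EY436390 was 0.41 without Mequinenza replicate 2, that of EY436582 was 0.34 without Faio replicate 2, and that of EY435515 was 0.28 without Sitjar replicate 1.

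Members at the limit of the rule differed little from sequences left out. EY435231 and EY436340 were just inside with spans of 0.50 each, and EY434473 and EY436455 were just outside with 0.51 each. EY436340 had site means of 17.16 at Sitjar, 17.47 at Flix Factory, 17.52 at Flix Reservoir, 17.53 at Riba Roja, 17.66 at Faio and 17.63 at Mequinenza. Its low value was set by Sitjar, since the 5 Ebro sites spanned 0.18, and its span was 0.27 without Sitjar replicate 2 and 0.75 without replicate 1. AJ517687 (span 0.49) was highest at Sitjar instead, at 16.96 against 16.47 to 16.76 on the Ebro, and its span was 0.30 without Sitjar replicate 2 and 0.80 without replicate 1. At the brightness limit, EY434162 (15.77) and EY433842 (15.75) were the last taken, and EY436975 (15.70) and EY436097 (15.69) the first left out.

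The arrays of 1 site also lay closer together for the members than for the typical sequence. The within-site SD (n = 2 arrays a site, pooled over 6 sites) had a median of 0.15 and a range of 0.04 to 0.48. The median was 0.38 over all 1226 sequences and 0.22 over the 64 equally bright sequences with wider spans. With the slide difference removed, the medians were 0.12 for the 100, 0.16 for those 64 and 0.24 for all. Over the 5 Ebro sites alone the median span of the 100 was 0.24, against 0.52 for all sequences. The rule held these spans under 0.5 too, since the 5 Ebro means are among the 6 it used. In limma's F test over the 6 sites, with Benjamini-Hochberg adjustment over 1226 sequences, 0 sequences passed an adjusted p of 0.05 (0%), the smallest adjusted p was 0.0701, and 101 had an unadjusted p under 0.05. With the slide as a block, 66 sequences passed (5.38%), 319 had an unadjusted p under 0.05, and 0 of the 100 did by either measure. Nothing is read from the members' 0, because the rule chose them on the same site means.

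Within single slides, where each site has 1 array, the spans were wider than for the means. On slide 1, 73 of the 100 spanned under 0.5, with a median of 0.37 and a largest span of 0.78. On slide 2, 69 did, with a median of 0.40 and a largest span of 0.84. The limit was kept on both slides by 49 members and on neither by 7, and all 100 spanned under 1 on both. For all 1226 sequences the median spans within slides were 0.78 and 0.83, and 264 and 234 kept to the limit.

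Which site was highest or lowest varied from member to member. The highest site mean was at Faio for 28 members, Mequinenza for 23, Sitjar for 21, Riba Roja for 11, Flix Factory for 10 and Flix Reservoir for 7. The lowest was at Sitjar for 42, Faio for 22, Flix Reservoir for 12, Mequinenza and Riba Roja for 10 each, and Flix Factory for 4. Sitjar was also the most frequent lowest site among all 1226 sequences, at 28.9%. The Ebro mean minus Sitjar had a median of 0.07 over the 100 and ran from -0.37 to 0.43, and it was above 0 for 61 of them. It was above 0 for 53.5% of all sequences, with a median of 0.04.

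The evenness of the 100 across sites held on the quantile scale and not on all others. When each array was instead scaled by the 75th percentile of its log2 signals over the 2806 probes well above background everywhere, 38 of the 100 spanned under 0.5 and their median span was 0.71. With no scaling, 50 did and the median was 0.49. In the authors' deposited value table, 57 did and the median was 0.46. The number that kept to the limit under quantile normalisation, the 75th percentile and no scaling together was 0 of 100. The label of sequences stable across all sites therefore describes their place in each array's ranking, and not their signal in every scaling.

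The scalings divided the members by brightness. Of the 1160 sequences ordered by level, the 116 brightest held 70 members and the next 116 held the other 30. Under the 75th percentile the 70 had a median span of 1.03 and 12 kept to 0.5, while the 30 had a median of 0.31 and 26 did. With no scaling the order turned, with medians of 0.36 and 0.87, and 49 of the 70 but 1 of the 30 kept to 0.5. The same turn was seen when other sequences of those levels were counted too. Median spans in the 116 brightest were 0.45 under quantile normalisation, 1.04 under the 75th percentile and 0.44 unscaled, and in the next 116 they were 0.48, 0.45 and 0.95.

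**Figure D2:**
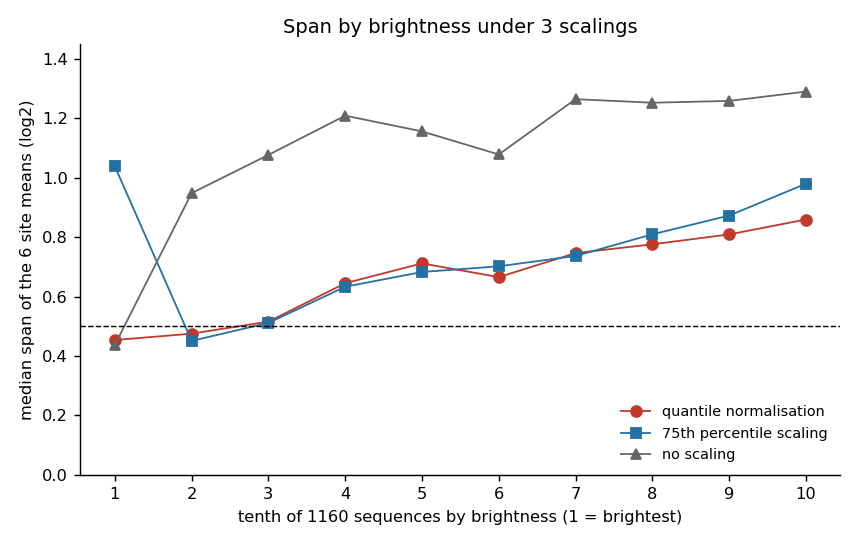
Median span of the 6 site means (vertical, log2 units) in 10 groups of 116 sequences ordered by brightness (horizontal, 1 is brightest) under quantile normalisation, 75th percentile scaling and no scaling; the dashed line marks 0.5. In the brightest group the 75th percentile gives the widest spans (1.04), and in the second group no scaling does (0.95).

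A pair of members shows both cases. EY437040 had site means of 17.84 at Sitjar, 17.97 at Flix Factory, 17.96 at Flix Reservoir, 17.98 at Riba Roja, 18.02 at Faio and 17.98 at Mequinenza on the quantile scale, a span of 0.18 (0.28 without Mequinenza replicate 1). On the 75th percentile scale its arrays ran from 17.17 (Sitjar replicate 1) to 18.91 (Mequinenza replicate 2) and its span was 1.07, while unscaled it was 0.23. EY436735 spanned 0.49 on the quantile scale, with 16.05 and 16.34 on the Sitjar arrays and 15.65 to 15.93 on the others. On the 75th percentile scale its 12 arrays ran only from 15.71 to 16.15, a span of 0.14, and unscaled it spanned 1.06. Sitjar stood above all other arrays for EY436735 on the quantile scale, and on the 75th percentile scale 1 Sitjar array (15.77) lay among the others.

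By array, the median deviation of the 100 from their own 12-array means ran from -0.12 (Sitjar replicate 2) to 0.06 (Mequinenza replicate 2) on the quantile scale. On the 75th percentile scale it ran from -0.59 (Sitjar replicate 1) to 0.55 (Mequinenza replicate 2). With no scaling it ran from 0.41 to -0.67 between those arrays, and the median of all 1226 sequences from 1.09 to -1.11. The bright members thus moved less between arrays than the typical sequence in unscaled signal. The array with the fewest probes above background, Mequinenza replicate 2, was also the one where the members stood highest on the 75th percentile scale. The part that overall signal plays in these shifts was not tested.

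**Figure D3:**
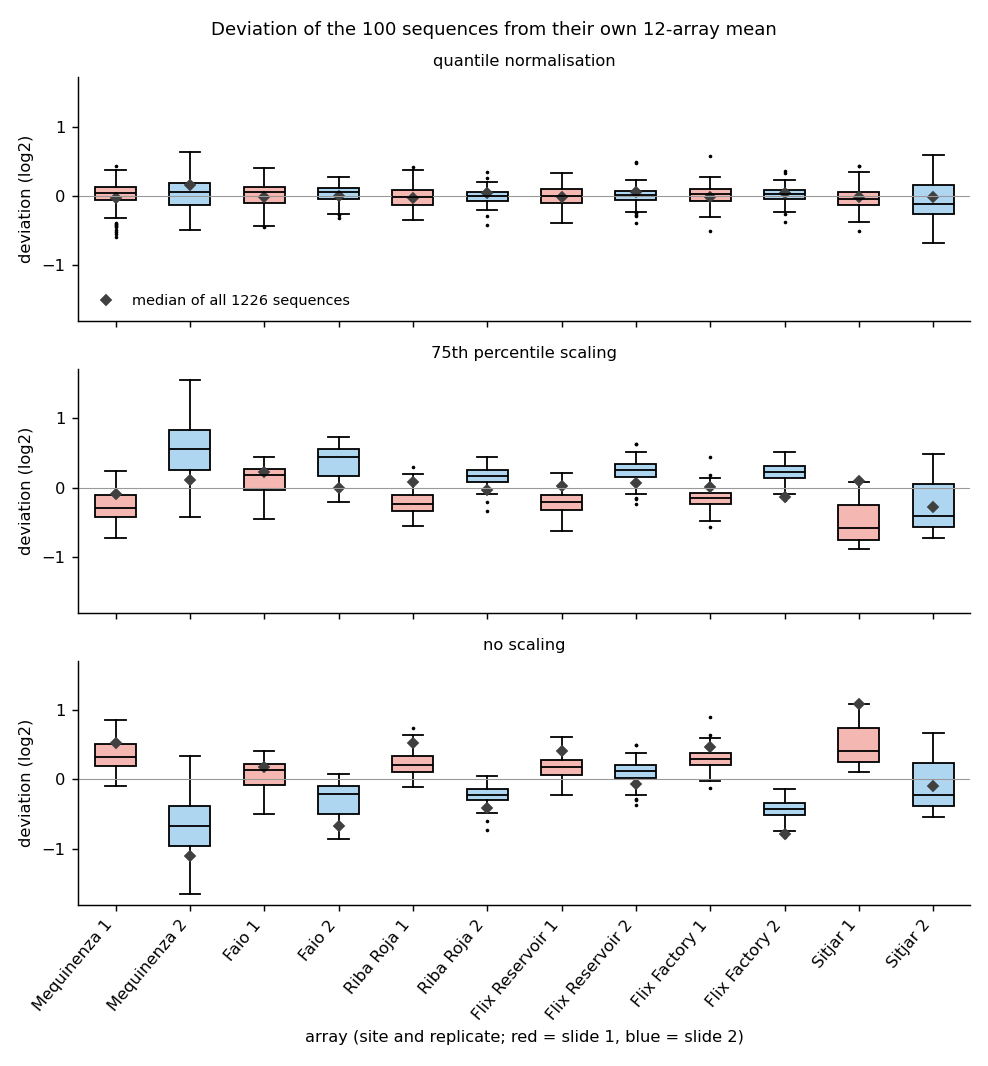
Deviation of each of the 100 sequences from its own 12-array mean (vertical, log2 units), by array (horizontal), under 3 scalings; boxes span the quartiles with the median as a line, whiskers reach 1.5 times the box height, dots are members beyond them, and diamonds are medians of all 1226 sequences. Boxes stay near 0 under quantile normalisation and shift by up to 0.59 under the 75th percentile.

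The comparison of the Ebro with Sitjar turned with the scaling. On the 75th percentile scale the Ebro mean was above Sitjar in 91 of the 100, with a median difference of 0.53, while it was above Sitjar in 59.1% of all sequences with a median of 0.09. Sitjar was then the lowest site for 74 members and Faio the highest for 62. With no scaling the median difference was -0.18 and the Ebro mean was above Sitjar in 38. All sequences had a median of -0.62 there, and their number above Sitjar was not counted. The median difference of the members thus had opposite signs on the 75th percentile scale and unscaled.

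Ranks need no scaling between arrays. Among the 1226 sequences ordered by unscaled level within each array, a member's rank ranged over a median of 41 places between its best and worst array, from 2 places for EY434169 to 99 for EY436945. The 64 sequences as bright but with wider spans ranged over a median of 72.5 places and all sequences over 144. On every array, 90 of the 100 were among the 200 brightest, and the worst rank of any member was 225. The narrow ranks restate the rule in part, since quantile normalisation works on ranks.

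The difference between the slides did not enter the site means that chose the members, and it was tested with site as a covariate in limma over all 1226 sequences. In all, 560 sequences passed an adjusted p of 0.05 (45.7%), of which 341 were higher on slide 2 (27.8%) and 219 lower (17.9%). Of the 100 members 10 passed, 7 higher and 3 lower. Among the 64 equally bright sequences with wider spans 6 passed, and among the 265 dimmer sequences with spans under 0.5 there were 117 (44.2%). The share of members called was therefore below the background and near that of other bright sequences. The median size of the slide difference was 0.10 for the members, 0.15 for the equally bright ones, 0.30 for the dimmer ones with narrow spans and 0.37 for all. The 95% interval of the difference had a median half-width of 0.22 for members and lay within 0.5 on either side of 0 for 86 of them. The half-width was 0.25 for the 64 equally bright sequences and 0.31 for all. Their intervals lay within 0.5 for 40 of those 64 and for 365 of all 1226.

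EY436945 differed most between the slides. Its slide 1 arrays read 15.32, 15.66, 15.55, 15.81, 15.40 and 15.23 at Sitjar, Flix Factory, Flix Reservoir, Riba Roja, Faio and Mequinenza, and its slide 2 arrays read 16.22, 16.18, 16.31, 16.17, 15.96 and 16.08 in the same order. The 2 sets did not overlap. Slide 2 was higher by 0.66 log2 units (SE 0.10, 1.58-fold, 6 of 6 sites, limma adjusted p = 0.00166). With no scaling the difference was -0.14 (limma adjusted p = 0.553), and all 7 members called higher on slide 2 were below 0 there. EY436880 was higher on slide 2 by 0.52 (SE 0.11, 6 of 6 sites, limma adjusted p = 0.00683), from 16.29 to 16.82 on slide 1 and from 16.98 to 17.34 on slide 2, again without overlap.

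EY436836 went the other way. It read 16.16 to 16.83 on slide 1 and 15.87 to 16.22 on slide 2, and the sets overlapped only between Faio replicate 1 (16.16) and Flix Factory replicate 2 (16.22). Its difference was -0.50 (SE 0.11, lower on slide 2 in 6 of 6 sites, limma adjusted p = 0.00535). EY433820 was lower on slide 2 by a difference of -0.41 (SE 0.10, 6 of 6 sites, limma adjusted p = 0.0119), with its lowest array at Sitjar replicate 2 (15.79). The other 6 called members were EY435137 (0.48), EY434149 (0.37), EY436696 (0.32), EY434300 (0.30) and EY436791 (0.28), all higher on slide 2, and AJ250733 (-0.29). Their limma adjusted p-values lay between 0.0158 and 0.0446. On the 75th percentile scale the 3 called lower no longer passed, at -0.22 for EY436836, -0.11 for EY433820 and -0.07 for AJ250733 (limma adjusted p = 0.121, 0.502 and 0.666), and with that percentile taken over all probes they were above 0. The calls also depended on the probe filter. With all probes above background on at least 1 array, EY436945 alone of the 10 kept its call. With no filter on dim probes EY436945 and EY436880 did, while EY433820 changed sign. EY436945, EY436880, EY434149, EY436696, EY434300 and AJ250733 already had every probe averaged. For them the looser filters changed only the set of sequences fitted beside them. Under the filter used here, EY436945, EY436880, EY436836 and EY433820 passed whichever of the 12 arrays was left out, EY435137 in 10 of 12 cases, EY434149 in 8, and the other 4 in 2. With site as a covariate, leaving out 1 array also takes its partner out of the slide estimate. These 12 cases thus come close to leaving out each of the 6 sites, and are not 12 separate checks. The number called among the 100 was 5 without either Riba Roja or either Flix Reservoir array and 6 without either Flix Factory or either Sitjar array.

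**Figure D4:**
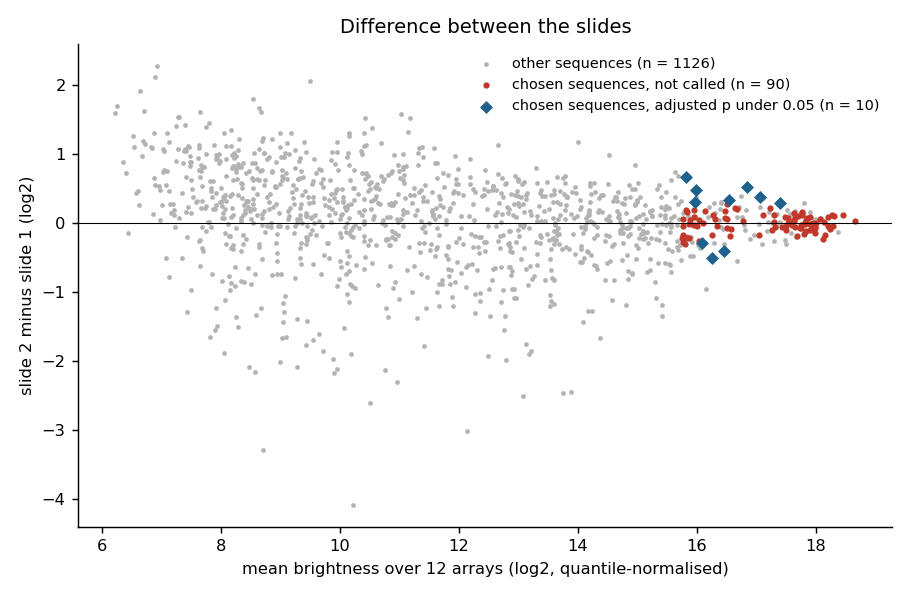
Slide 2 minus slide 1 (vertical, log2 units, fitted with site as a covariate) against mean level (horizontal, quantile-normalised log2) for 1226 sequences. The 10 members with a limma adjusted p under 0.05 (blue diamonds) lie between -0.50 and 0.66, the other 90 members are red, and the remaining sequences are grey.

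The slide difference also moved with the scaling. On the 75th percentile scale 205 of 1226 sequences were called higher on slide 2 (16.7%) and 70 of these were members, whose median difference was 0.47 against -0.05 for all sequences. With no scaling 1013 sequences were called lower on slide 2 (82.6%), 58 of them members, and the medians were -0.49 for members and -1.01 for all. Of these 3 scalings, the members' median slide difference was nearest 0 under quantile normalisation. That follows in part from the method, which gives every array the same set of values. The 64 equally bright sequences with wider spans also had a median near 0 on that scale (0.003).

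Several probes can read 1 sequence, and they show whether the mean stands for its parts. The 100 sequences had 307 probes on the array, and 248 of these (80.8%) passed the background filter and were used. For all 1226 sequences the share was 59.0%. Every probe was used for 68 members (32.1% of all sequences), and 17 members had a probe above background on no array (44.6% of all). These shares follow in part from brightness, which chose the members. Of the 248 single probes, 183 (73.8%) spanned under 0.5 over the site means, with a median of 0.38. The share was 29.2% over all 2806 probes and 62.2% over the used probes of the 265 dimmer sequences with spans under 0.5. The rule bears on the members' share, since it chose them on the mean of these same probes. For the 24 members with 1 used probe it fixed the probe's span under 0.5. Of the 76 members with more than 1 used probe, 32 had every probe under 0.5 and 7 had a probe of 1 or more.

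Probes of some members had spans of similar size. The probes of EY434167, EY434053 and EY436601 were most alike in span among the 22 members with at least 4 used probes. The 4 probes of EY434167 had means from 16.88 to 17.93 and spans of 0.28, 0.42, 0.42 and 0.46, and all 4 were lower at Riba Roja and Flix Reservoir than at Mequinenza. The 4 probes of EY436601 differed widely in brightness, with means of 17.06, 16.62, 16.02 and 13.79, but each was lowest at Sitjar.

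Among the same 22 members with at least 4 used probes, AM503946, AJ250733 and EY435811 had the probes least alike in span. In EY435811, 4 probes had means of 17.49 to 18.18 and spans of 0.20 to 0.56. The last, CUST_1529_PI415929191, read 16.89 to 17.13 on the Mequinenza and Faio arrays, 15.47 to 15.72 on the Riba Roja, Flix Reservoir and Flix Factory arrays, and 16.42 and 16.01 at Sitjar. Those 3 ranges did not overlap. CUST_1528_PI415929191 and CUST_1022_PI415929188 also had higher site means at Mequinenza and Faio than at Riba Roja and both Flix sites, by smaller steps (18.13 to 18.28 against 17.91 to 17.98, and 17.65 to 17.71 against 17.37 to 17.53). They differed in Sitjar, which was their lowest site (17.72 and 17.15) and not between the others. The remaining 2 probes did not have this order. CUST_1529_PI415929191 had a limma adjusted p over the 6 sites of 0.0195 with the slide as a block and 0.0728 without. It was the only member probe among the 106 of 2806 single probes that passed with the block (3.78%), and nothing is read from that count. In AJ250733 the probe CUST_204_PI415929191 also stood higher on the Mequinenza and Faio arrays (15.53 to 16.61) than on those of Riba Roja and both Flix sites (14.25 to 15.12). Its other 5 probes were divided among themselves. In its site means CUST_138_PI415929188 had the same order (17.13 to 17.31 against 16.92 to 17.04). The opposite order was that of CUST_20_PI415924929 (16.97 to 17.10 against 17.17 to 17.21), CUST_203_PI415929191 (16.24 to 16.28 against 16.31 to 16.49) and CUST_137_PI415929188 (15.02 at both against 15.09 to 15.24), and CUST_205_PI415929191 had neither.

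The 7 probes with spans of 1 or more were looked at one by one after their values had been seen. In EY435231 the probe CUST_2482_PI415929188 had the opposite order to the 2 above, with 12.63 to 13.78 on the Mequinenza and Faio arrays and 13.90 to 14.77 on those of Riba Roja and both Flix sites. Its mean of 13.76 was far below those of the other 2 probes (17.41 and 17.65), which spanned 0.35 and 0.36. In AJ517605, CUST_11702_PI415929191 had the same order, with 14.97 to 15.72 against 15.74 to 16.90. The Sitjar site was lowest for CUST_11247_PI415929191 of AM503946 (16.22) and for CUST_306_PI415929188 of EY434390 (15.22). In EY433913, 1 array alone widened a probe, since CUST_1092_PI415929188 read 13.27 on Mequinenza replicate 2 and 16.16 on replicate 1. Of these 7 probes, 6 were the dimmest used probe of their sequence. Over the 76 members with several used probes, the dimmest probe had the wider span in 48, with median spans of 0.47 for the dimmest and 0.33 for the brightest. Among the other 659 sequences with several used probes this held in 431.

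**Figure D5:**
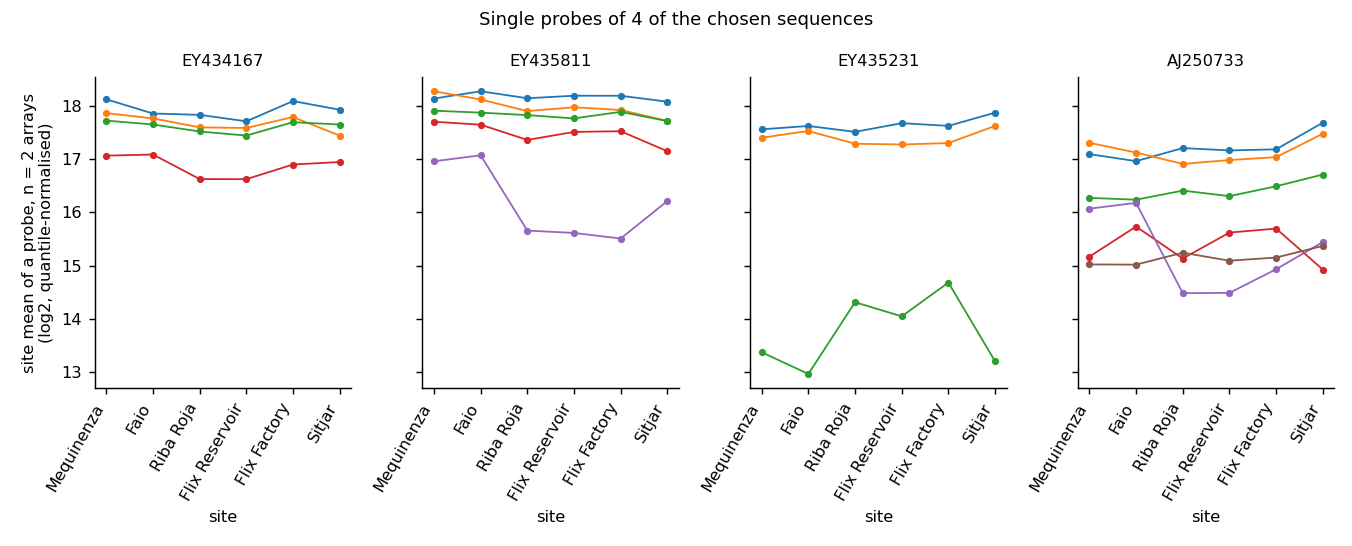
Site means of the single probes (vertical, quantile-normalised log2, n = 2 arrays each) of EY434167, EY435811, EY435231 and AJ250733 by site (horizontal), 1 line per probe. The probes of EY434167 run together, while 1 probe each of EY435811, EY435231 and AJ250733 changes by 1.57, 1.72 and 1.70 between sites.

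In accession series and probe set the 100 were close to the sequences they were drawn from. Accessions that begin with EY made up 96 of them, where they were 92.1% of the 1160 eligible sequences, and 3 began with AJ and 1 with AM. Of the used probes, 69.4% belonged to the probe set PI415929191 and 30.2% to PI415929188, where these shares were 70.3% and 29.3% over all 2806 probes. On the same array, copies of a probe had a median SD of 0.10 log2 units for the 45 member probes with copies and of 0.08 for all 281 such probes.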

How the data were processed

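Pools of 5 mussels from 6 sites were measured on 12 one-colour arrays, 2 per site, from 500 ng of RNA labelled with Cy3 per the labels' protocols. The deposited spot intensity values are Agilent Feature Extraction's processed signals, with the background subtracted and no scaling across arrays, per the file headers, which name version 10.5.1.1. The submitters' processing notes name version 9.5. Its calls of saturated, outlying and well-above-background spots were deposited as scores of 0 or 1. An alternative was the authors' deposited table of log2 values; how they were centred or normalised is not stated.

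Of 15744 spots, 536 controls and the outlier-flagged spots were left out, and the log2 signals of copies were averaged, giving 13654 probes. For copies of a probe, a share over 0.5 had to be above background. Probes were quantile-normalised, as the rule for the 100 sequences states, and the 2806 above background on all arrays were averaged per sequence. limma (version 3.58.1, R 4.3.3) fitted all 1226 sequences with Benjamini-Hochberg adjustment over all of them and a threshold of 0.05. The number of arrays limits the precision.

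The replicate number is also the slide and the scan. Over 15 pairs of sites, arrays of the same number had deviations from their site means that correlated (r across sequences 0.49 to 0.77, median 0.67, all over 0.1), and principal component 1 (41.8% of the variance) separated the slides. Equal numbers were thus treated as pairs that share a slide.

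Members, lists and tests were chosen with earlier results of these data known. Named in the text are members among the 20 brightest, the 5 smallest and 5 largest spans, those next to the limits, up to 10 past the slide test in each direction, and the 3 with the most and the 3 with the least alike probes among those with at least 4. EY434390 and the probes spanning 1 or more were chosen after their values were seen. The gene lists planned beside these had no entry, since no sequence was named. The normexp alternative (offset 50) used the median signal and median background, since no mean-signal column was at hand. The tests were tested on simulated data. Sequences of the probes were not used here.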

Additional observations from a re-analysis of the deposited data

How the results depend on the processing

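The scaling, the probe filter and the slide block each changed some results. Of the 100 sequences, the same rule under another setting chose 38 again under the 75th percentile over probes detected everywhere (median span of the 100 then 0.71, 38 under 0.5, 70 differing between slides), 11 under that percentile over all probes (0.82, 11 under 0.5, 86 differing, 134 sequences under 0.5), 39 under the median of detected probes (0.71, 39 and 92), 50 with no scaling (50 under 0.5, 109 sequences under 0.5, 58 members and 1017 sequences differing between slides) and 57 in the authors' deposited table (57 under 0.5). Scaling by the median of the bright sequences, chosen after seeing the data, gave 51 (51 under 0.5, 174 sequences, 18 differing). Where members called between slides stand in this paragraph without the calls among all sequences, nothing is read from their number. Span limits of 0.25 and 0.75 gave 26 members with 54 sequences and 681 sequences, the 100 smallest spans held 39, and slide 2 alone had 226 sequences under the limit. Taking probes above background on at least 1 array called 4 members between slides and 6 sequences among sites. With no filter on dim probes, 1208 sequences spanned under 0.5 and 5 members were called between slides. Of the 10 members called in the report, 1 kept its call with the former and 2 with the latter. Single probes gave 1229 calls between slides among 2806 probes, with 38 among the 248 used probes of members, and 1 call among sites. Array weights gave 1 sequence and limma-trend 17 among sites. With the replicate block (the slide), 66 sequences passed the site test instead of 0, and 0 members did. Leaving out 1 array in turn, 68 to 96 members were chosen again, 250 to 353 sequences and 68 to 98 members spanned under 0.5, the members' median span was 0.30 to 0.42, 450 to 627 sequences and 5 to 12 members differed between slides, and 0 sequences and 0 members passed the site test. Slide 2 minus slide 1 changed sign for EY436836 (0.13), EY433820 (0.25) and AJ250733 (0.29) under the 75th percentile over all probes, for the same 3 under the median (0.13, 0.24 and 0.28), for EY436945 (-0.14), EY436880 (-0.071), EY435137 (-0.28), EY434149 (-0.17), EY436696 (-0.33), EY434300 (-0.46) and EY436791 (-0.24) with no scaling, and for EY433820 (0.0063) with no filter. The cause was not tested. Of the spans of the 50 named sequences, which include those just outside the limits, 338 stayed within 1 SD and 212 moved. Of the other slide differences of the called members, 96 kept their call while 30 no longer passed. Where a probe is near background on some array it was left out, so the limits of dim sequences are not described.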
